A study of Mus musculus with 4 samples.

Results

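A set of 10 genes of antibody production was followed across sorted mouse bone marrow progenitors with and without Fbw7: the immunoglobulin heavy chain genes Igha and Ighm, the joining chain gene Jchain, Mzb1, Pou2af1, Irf4, Xbp1, Fkbp11, Creld2 and Sdf2l1. They were 10 of the 18193 genes named by the array annotation, and every probe set that names 1 of them and no other gene was used, 28 in all. The genes were chosen on these same arrays for genotype differences that run in opposite directions in the 2 sorted populations, so those differences are given here as a description and nothing is tested with them. All 10 genes reached the level filter on their brightest probe set, meaning that the highest of the 4 arrays was at or above 157, the median of all intensities.

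The study compared 4 groups of cells, with 1 array each: Fbw7-deficient LSK, wild-type LSK, Fbw7-deficient MP and wild-type MP. The LSK gate takes lineage-negative cells with Kit and Sca1 on their surface, which include the stem cells and multipotent progenitors, while MP cells are the Kit-positive myeloid progenitors without Sca1. Fbw7 (gene Fbxw7) is the substrate-binding part of a ubiquitin ligase. Animals of both genotypes had been given polyI:C, a mimic of double-stranded RNA, in 3 injections (20 ug per g each) 2 weeks before the marrow was taken. The marrow of 3 mice was pooled for each genotype before the sort, so LSK and MP of a genotype share their animals. Neither the allele nor the driver of the deletion, the strain or the age is stated in the labels. The values are RMA intensities on a linear scale, and a difference is that of log2 intensities, Fbw7-deficient minus wild-type or LSK minus MP. With 1 array per group there is no replicate error and no test, and a gene counts as called from a difference of 2-fold, or log2 1, upward.

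Antibodies are built from heavy and light chains in the endoplasmic reticulum (ER), and the joining chain links units of IgM and IgA into polymers before secretion. B cells turn into plasma cells when IRF4 and then XBP1 come up, and XBP1 raises the chaperones, folding enzymes and translocon parts that a secreting cell needs. Many cells that make no antibody also use XBP1 and the ER folding machinery, among them myeloid progenitors that fill granules. In bone marrow, plasma cells are a resident population, and IgM heavy chain RNA is already made in B cell precursors.

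As a check of the arrays, Fbxw7 RNA read 1103 in Fbw7-deficient LSK against 1355 in wild-type LSK, and 958 in Fbw7-deficient MP against 691 in wild-type MP; the labels do not say which part was deleted, so these values do not check them. Kit read 5313 and 6723 in Fbw7-deficient and wild-type LSK, and 4190 and 6510 in Fbw7-deficient and wild-type MP. The stem cell gene Hlf was higher in LSK than in MP of either genotype, by a log2 difference of 2.10 in Fbw7-deficient and 3.53 in wild-type cells. The sorted populations thus differed in that stem cell marker. The control probe sets of Gapdh at its 3' end were brighter than those at its 5' end by 2.60-fold to 2.95-fold on 3 arrays and by 4.30-fold on that of wild-type LSK, which stood apart; its part in the LSK differences was not tested.

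The antibody chain genes and their B lineage partners were higher in Fbw7-deficient than in wild-type LSK and lower in Fbw7-deficient than in wild-type MP. This held on the brightest probe set of all 6 of these genes (Igha, Jchain, Ighm, Mzb1, Pou2af1 and Irf4), with median log2 differences of 0.77 in LSK and -1.03 in MP. The ER secretion genes Fkbp11, Creld2, Xbp1 and Sdf2l1 did not show it as a group: all 4 were higher in Fbw7-deficient LSK (median 0.71), but in MP 3 of the 4 lay above 0 and the median was 0.11. Opposite directions were thus present in 7 of the 10 genes, although all 10 had been chosen for them. They were also present in 13 of the 21 member probe sets that reached the filter. Creld2 is among the 7, with an MP difference of only log2 -0.11. Over the 12239 genes that passed the level filter, 19.3% were above 0 in LSK and below 0 in MP. At 2-fold, 3 of the 10 genes were called higher in LSK, where 1.79% of all genes were, and none lower, where 1.95% were. In MP 3 were called lower, where 1.49% of all genes were, and none higher, where 0.825% were. Since the choice of the genes used these contrasts, nothing is read from those shares. The medians over all genes tested were 0.00 in both contrasts.

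**Figure D1:**
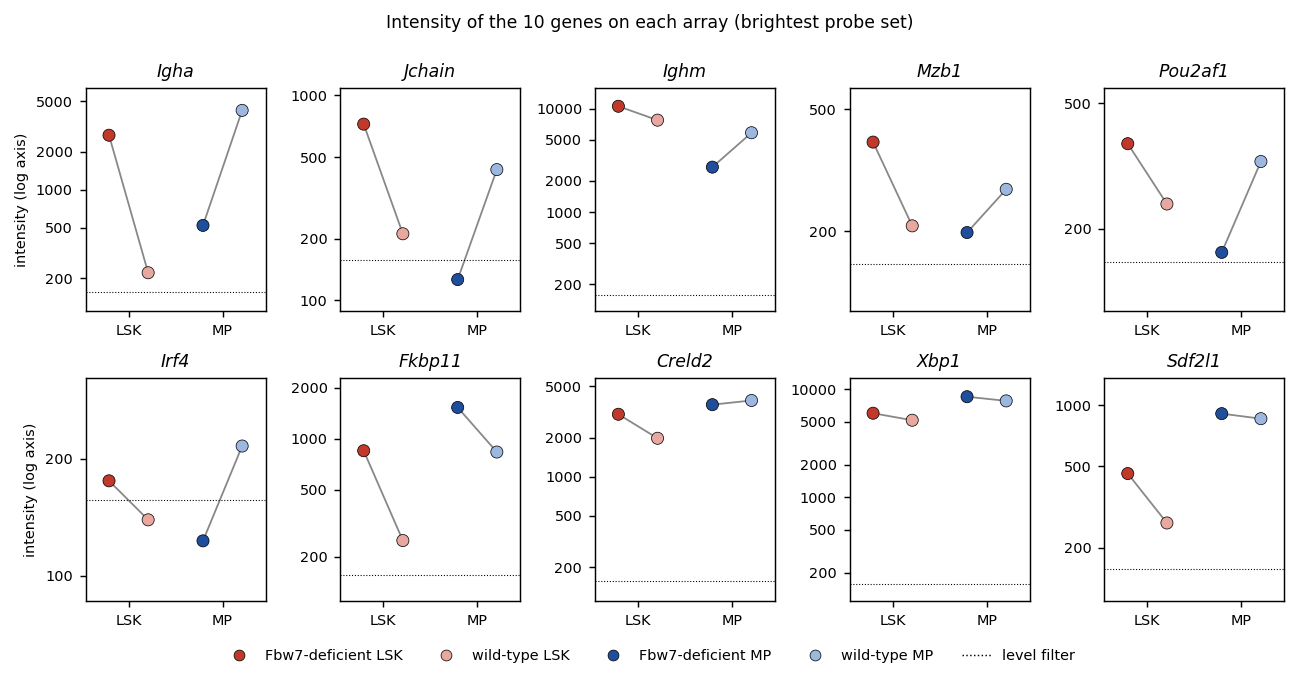
Intensity (log axis) of the brightest probe set of each of the 10 genes on the 4 arrays, Fbw7-deficient left of wild-type within LSK and MP, with 1 array per point and no error bars. The dotted line is the level filter of 157. For Igha, Jchain, Ighm, Mzb1, Pou2af1 and Irf4 the line falls to the right in LSK and climbs to the right in MP, whereas Fkbp11, Xbp1 and Sdf2l1 are higher in the Fbw7-deficient cells of both populations.

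Igha, the constant region gene of the IgA heavy chain, had the widest spread. It read 2696 in Fbw7-deficient LSK against 221 in wild-type LSK, and 523 in Fbw7-deficient MP against 4238 in wild-type MP. Fbw7-deficient LSK and wild-type MP were the high arrays, and wild-type LSK was the low one. The log2 differences were 3.61 in LSK and -3.02 in MP, or 12.2-fold higher and 8.10-fold lower in Fbw7-deficient cells. Among the 12239 genes this was the lowest difference in MP and rank 3 from the top in LSK. The 2 other probe sets of Igha moved the same way past 2-fold in both populations, with log2 differences of 3.30 and 1.76 in LSK and of -3.56 and -2.11 in MP. Both are of a kind that the array maker marks as open to cross-hybridisation (names ending in _x_at).

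Jchain, which encodes the joining chain, has 1 probe set. It read 725 in Fbw7-deficient LSK against 211 in wild-type LSK, and 126 in Fbw7-deficient MP against 435 in wild-type MP. The pattern was that of Igha with a smaller range, except that the lowest array was Fbw7-deficient MP, whose value lay under the level filter. Its log2 differences were 1.78 in LSK and -1.78 in MP, where the size is not established because of that dim value. Igha and Jchain had the highest values of all genes for the difference between the LSK and MP genotype differences (log2 6.63 and 3.56), that of Jchain resting in part on its dim value in Fbw7-deficient MP. That quantity was at or above log2 1 in 6 of the 10 genes, the antibody chain and B lineage genes, and in 2.2% of all genes (with the mean of all probe sets, Ighm at 0.80 and Irf4 at 0.81 were below it), and at or below -1 in none of the 10 and in 1.32% of all genes. Only 6 of the 12239 genes (0.049%) were at least 2-fold higher in LSK and 2-fold lower in MP. They were Igha, Jchain, the receptor tyrosine kinase gene Met, Ly86, which encodes the partner of the RP105 receptor of B and myeloid cells, the recombinase gene Rag1 and the B cell adaptor gene Blnk. The last 4 were named after their values were seen. Like that of Jchain, the Rag1 value in Fbw7-deficient MP lay under the level filter.

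Ighm, the constant region gene of the IgM heavy chain, behaved differently in LSK. Its brightest probe set read 10545 in Fbw7-deficient LSK against 7738 in wild-type LSK, and 2718 in Fbw7-deficient MP against 5850 in wild-type MP. Both LSK arrays were thus high, and Fbw7-deficient MP stood lowest. The log2 differences were 0.45 in LSK, which is below 2-fold, and -1.11 in MP. The probe set next in brightness gave 0.41 and -1.43. Of the other probe sets that reached the filter, 3 differed little, with 0.15 and -0.20 at rank 3, 0.23 and 0.25 at rank 5, where the directions were the same, and 0.31 and -0.02 at rank 6. The one at rank 4, by contrast, read 1619 in Fbw7-deficient LSK against 113 in wild-type LSK (log2 3.84), and 172 in Fbw7-deficient MP against 301 in wild-type MP (log2 -0.81). On that probe set wild-type LSK was under the level filter, so the size of its fold is not established. The annotation does not say which part of the transcript each probe set covers. Of the 11 probe sets of Ighm, 5 stayed below the level filter on all 4 arrays, at 40.2 to 77.5, with log2 differences of 0.00 to 0.38 in LSK and of -0.06 to 0.32 in MP.

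**Figure D2:**
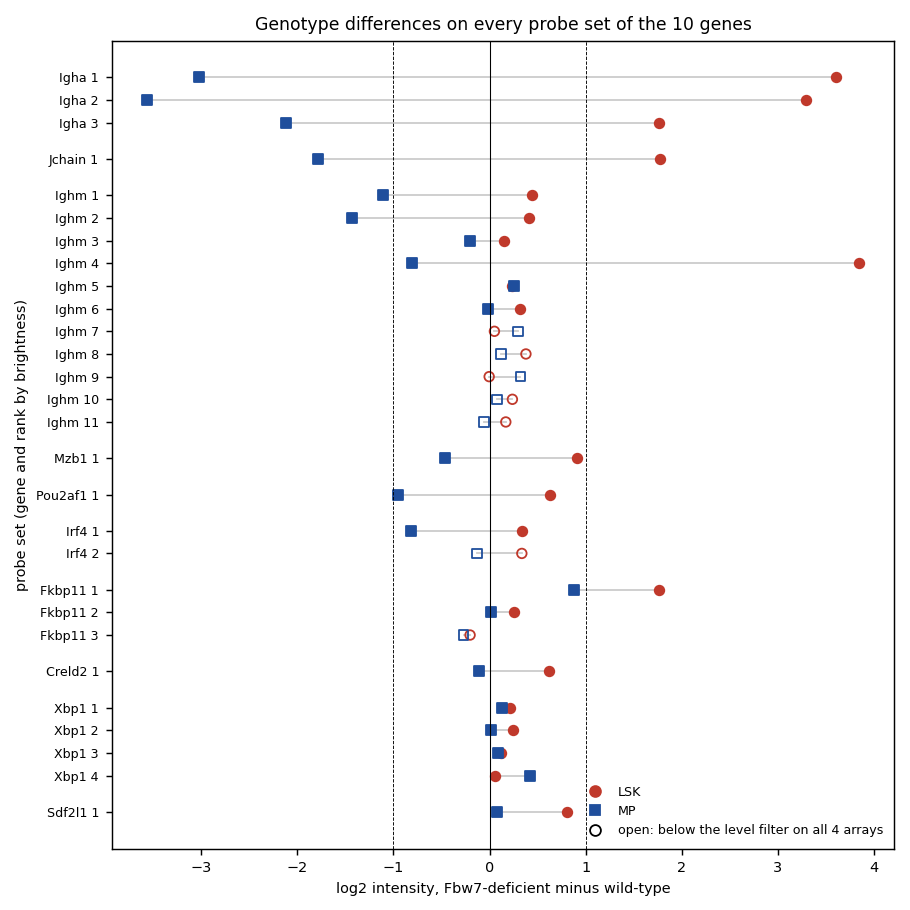
Log2 difference, Fbw7-deficient minus wild-type, in LSK (circles) and in MP (squares) for each of the 28 probe sets of the 10 genes, ordered by brightness within a gene, with 1 array per group. Dashed lines mark 2-fold, and open symbols are the 7 probe sets below the level filter on all arrays. The 3 probe sets of Igha and that of Jchain lie far apart in LSK and MP, while the probe sets of Ighm and Fkbp11 differ among themselves.

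The 3 further B lineage members had lower intensities and smaller differences. Mzb1 encodes an ER protein of marginal zone B cells and plasma cells that helps assemble IgM. It read 390 in Fbw7-deficient LSK against 208 in wild-type LSK (log2 0.91), and 198 in Fbw7-deficient MP against 274 in wild-type MP (log2 -0.47). Pou2af1 encodes the coactivator that joins octamer-binding factors at immunoglobulin promoters. It read 372 in Fbw7-deficient LSK against 240 in wild-type LSK (log2 0.63), and 168 in Fbw7-deficient MP against 327 in wild-type MP (log2 -0.96). Fbw7-deficient LSK was the highest array for both genes and Fbw7-deficient MP the lowest. Irf4, a transcription factor needed for plasma cells, read 176 in Fbw7-deficient LSK against 139 in wild-type LSK (log2 0.33), and 123 in Fbw7-deficient MP against 216 in wild-type MP (log2 -0.81). Only Fbw7-deficient LSK and wild-type MP exceeded the level filter for Irf4, and its dimmer probe set stayed below the filter on all arrays, with log2 differences of 0.34 in LSK and -0.13 in MP. None of these 3 genes passed 2-fold in either population.

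The secretion members were high in MP, and their genotype differences lay mostly in LSK. Fkbp11, a peptidyl-prolyl isomerase of the ER, read 849 in Fbw7-deficient LSK against 250 in wild-type LSK (log2 1.77), and 1531 in Fbw7-deficient MP against 834 in wild-type MP (log2 0.88). On this probe set it was higher without Fbw7 in both populations. This value rests on 1 probe set, of the kind _s_at that several transcripts can share. Another probe set above the filter gave log2 0.26 in LSK and 0.01 in MP. Its dimmest probe set stayed below the filter on all arrays, with log2 -0.20 in LSK and -0.27 in MP. Sdf2l1, part of an ER chaperone complex, read 462 in Fbw7-deficient LSK against 264 in wild-type LSK (log2 0.80), and 907 in Fbw7-deficient MP against 857 in wild-type MP (log2 0.08). Creld2, an ER stress-inducible protein disulfide isomerase-like factor, read 3040 in Fbw7-deficient LSK against 1983 in wild-type LSK (log2 0.62), and 3605 in Fbw7-deficient MP against 3884 in wild-type MP (log2 -0.11). Neither passed 2-fold. Xbp1, the transcription factor of the ER stress response, was bright throughout, at 6008 in Fbw7-deficient LSK against 5175 in wild-type LSK (log2 0.22), and 8546 in Fbw7-deficient MP against 7817 in wild-type MP (log2 0.13). Its 3 other probe sets gave log2 differences of 0.06 to 0.24 in LSK and of 0.01 to 0.42 in MP, none past 2-fold. XBP1 is switched on by splicing of its RNA, which these intensities do not report.

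**Figure D3:**
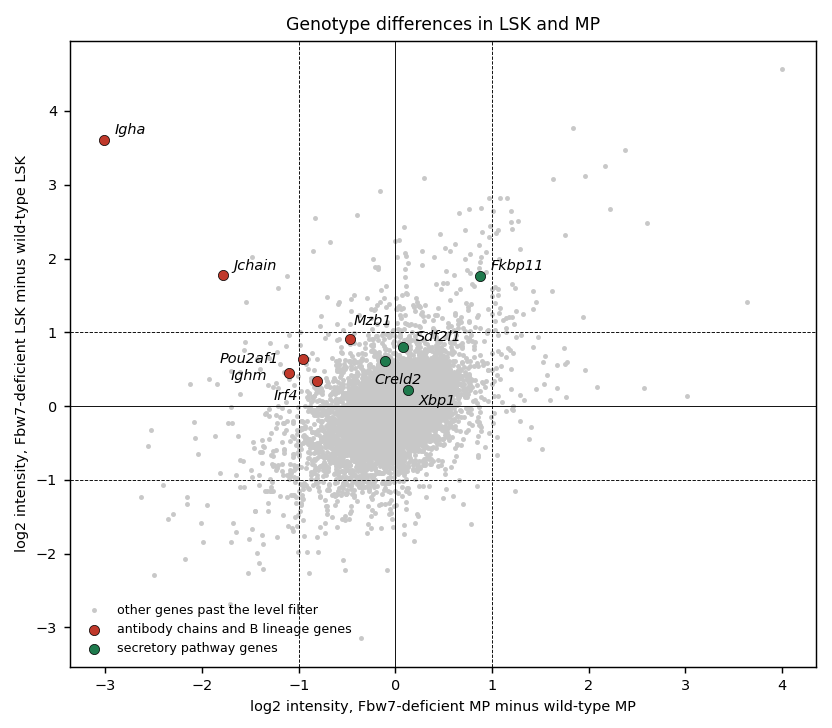
Log2 genotype difference in MP (horizontal) against that in LSK (vertical) for the 12239 genes past the level filter, with the 6 antibody chain and B lineage genes in red and the 4 secretory pathway genes in green. Dashed lines mark 2-fold. Igha (-3.02 and 3.61) and Jchain (-1.78 and 1.78) stand apart at the upper left, and Fkbp11 (0.88 and 1.77) lies to the upper right.

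The same 4 arrays read as LSK against MP turn the order round between genotypes for the antibody genes. In Fbw7-deficient cells all 6 antibody chain and B lineage genes were higher in LSK than in MP, with a median log2 difference of 1.55 and 4 of them past 2-fold; 3.86% of all genes tested were called higher in that contrast and 1.63% lower. In wild-type cells 5 of the 6 were lower in LSK than in MP (median -0.54), Ighm being the exception at 0.40, and Igha (-4.26) and Jchain (-1.04) were called lower, where 2.4% of all genes were and 5.05% were called higher. The 4 secretion genes were lower in LSK than in MP in both genotypes, with medians of -0.68 in Fbw7-deficient and -1.33 in wild-type cells, and Fkbp11 (-1.74) and Sdf2l1 (-1.70) were called lower in wild-type cells. These contrasts share their arrays with the genotype differences above and add no independent evidence. In bulk samples of this kind, fewer cells of a type and less RNA per cell cannot be told apart.

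The promoters of 7 of the 10 genes were matched by symbol in RefSeq (GRCm38.p6), as 8 windows from 250 bases before to 50 after a start site. A set of 5 motifs was searched on both strands: the ER stress response element (ERSE), which is CCAAT and CCACG with 9 bases of any kind between them, the second such element (ATTGG and CCACG with 1 base between them), the XBP1 element TGACGTGG, the immunoglobulin octamer ATGCAAAT and the core CCACG, which lies inside the first 3 as read on one strand. The core was in the windows of 5 of the 7 genes, the ERSE and the XBP1 element in 1 of the 7 each, and Jchain and Xbp1 held no match. Shown are Jchain, which had the widest opposite differences among genes with a window, Pou2af1 and Creld2, which hold the longer elements, and Sdf2l1, which holds most cores with no longer element. Capitals mark the motif matches, and each sequence runs 5′ to 3′ on the strand of its gene.
Jchain, chr5:88527848-88528147, minus strand: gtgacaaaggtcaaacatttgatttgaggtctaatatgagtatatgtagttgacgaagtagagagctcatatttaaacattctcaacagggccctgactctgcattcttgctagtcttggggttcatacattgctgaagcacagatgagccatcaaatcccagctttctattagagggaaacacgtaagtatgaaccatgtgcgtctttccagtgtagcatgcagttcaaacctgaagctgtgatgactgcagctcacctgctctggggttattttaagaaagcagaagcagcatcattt
Pou2af1, chr9:51213440-51213739, plus strand: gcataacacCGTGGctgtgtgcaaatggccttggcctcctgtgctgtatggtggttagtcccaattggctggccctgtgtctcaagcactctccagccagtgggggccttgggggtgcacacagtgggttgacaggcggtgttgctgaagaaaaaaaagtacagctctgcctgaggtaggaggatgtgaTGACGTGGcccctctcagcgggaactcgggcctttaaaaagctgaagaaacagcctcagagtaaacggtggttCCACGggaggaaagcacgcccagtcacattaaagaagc
Creld2, chr15:88819396-88819695, plus strand: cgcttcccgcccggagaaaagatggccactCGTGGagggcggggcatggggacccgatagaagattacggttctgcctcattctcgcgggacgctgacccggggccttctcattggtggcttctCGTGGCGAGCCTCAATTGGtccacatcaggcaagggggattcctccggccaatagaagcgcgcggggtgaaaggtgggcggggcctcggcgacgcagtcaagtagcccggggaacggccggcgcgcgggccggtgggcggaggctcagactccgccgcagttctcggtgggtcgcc
Sdf2l1, chr16:17132334-17132633, minus strand: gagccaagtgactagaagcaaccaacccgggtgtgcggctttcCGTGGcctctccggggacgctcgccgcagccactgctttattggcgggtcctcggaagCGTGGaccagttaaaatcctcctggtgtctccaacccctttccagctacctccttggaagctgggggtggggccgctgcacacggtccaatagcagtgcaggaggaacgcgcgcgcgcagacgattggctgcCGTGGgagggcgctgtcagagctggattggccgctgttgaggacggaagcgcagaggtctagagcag
The XBP1 element began 61 bases before the start of Pou2af1, and 0.676% of all 32851 windows hold it. The ERSE lay in reverse orientation 126 bases before the start of Creld2, and 0.119% of all windows hold it. Sdf2l1 held 3 CCACG cores, a match that 32.8% of windows have, and no longer element with these letters. The octamer, found in 1.74% of all windows, and the second ER stress element, found in 0.0365%, were in none of the 8 windows. A match describes the letters and is not a shown binding site.

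Other immunoglobulin genes did not all have opposite directions. Outside the 10 genes the array holds 42 probe sets that name heavy or light chain genes alone, and 10 of them reached the level filter. Of these 10, 7 were above 0 in LSK and below 0 in MP, as were 21.1% of all 24286 probe sets that reached the filter. Among the 10, 5 name 1 gene each, of which 3 had opposite directions, and 5 name several genes, of which 4 had. Igkv8-30, a kappa variable gene, read 330 in Fbw7-deficient LSK against 119 in wild-type LSK (log2 1.48), and 196 in Fbw7-deficient MP against 320 in wild-type MP (log2 -0.71). Ighg3, the constant region gene of IgG3, went the same way in both populations on its brightest probe set, at 175 in Fbw7-deficient LSK against 122 in wild-type LSK, and 299 in Fbw7-deficient MP against 177 in wild-type MP. For both Igkv8-30 and Ighg3 wild-type LSK was under the level filter. Probe sets without opposite directions read at most 299 on any array, and several with opposite directions were as dim. The brightest were 3 kappa probe sets that name several genes each, which had opposite directions and are given further below. None of the 4 lambda chain probe sets reached the filter. Immunoglobulin genes are close copies of each other, so their probe sets can read one another's RNA.

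Markers of B lineage stages were set beside these genes. All 8 early B cell genes were above 0 in LSK (median 0.37) and all 8 were below 0 in MP (median -0.98). Rag1 read 749 in Fbw7-deficient LSK against 221 in wild-type LSK, and 74.5 in Fbw7-deficient MP against 162 in wild-type MP. Its Fbw7-deficient MP value was under the level filter, so the size of its MP difference is not established. Blnk read 969 and 319 in Fbw7-deficient and wild-type LSK, and 174 and 404 in Fbw7-deficient and wild-type MP. Early B cell genes thus showed the directions of Jchain. The 8 early B cell intensities summed to 21226 in Fbw7-deficient LSK and 16638 in wild-type LSK, and to 1753 in Fbw7-deficient MP and 3152 in wild-type MP. Dntt, of lymphoid progenitors, made up most of both LSK sums, at 17155 in Fbw7-deficient and 14365 in wild-type LSK. The mature B cell genes (8 of 11 passed the filter) had a median of -0.04 in LSK, with 3 above 0. In LSK 2 were called lower, where 1.95% of all genes were. Those 2 were the MHC class II genes H2-Aa (-1.10) and H2-Ab1 (-1.31), and Cd79a was the highest at 0.51 (-0.54 in MP). In MP the median was -0.93, with all 8 below 0 and 4 called lower: H2-Aa, H2-Ab1, Cd74 and Ms4a1. Of all genes, 1.49% were called lower in MP. Ms4a1 read 120 in Fbw7-deficient MP, under the level filter, so the size of its MP difference is not established. Over the 10 mature B cell genes named on the array the sums were 3457 and 4881 in Fbw7-deficient and wild-type LSK, and 2566 and 5054 in Fbw7-deficient and wild-type MP. H2-Aa and H2-Ab1 read 546 and 568 in Fbw7-deficient LSK against 1172 and 1407 in wild-type LSK, and so weigh on the LSK sums.

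No plasma cell marker that a probe set names alone, other than the 10 genes, differed by 2-fold between genotypes in either population. The light chain genes Igkc and Iglc1, also listed as markers, have no such probe set and are not covered. Kappa chain probe sets that name several genes each were past 2-fold in LSK and are given further below. Prdm1, which encodes the plasma cell regulator BLIMP1, stayed at 56.6 to 57.8 on the 4 arrays, and Tnfrsf17, the receptor BCMA, at 70.6 to 82.7, all under the level filter. Slamf7, also under it, ranged over 112 to 129. Sdc1, the surface marker CD138, read 308 in Fbw7-deficient LSK against 284 in wild-type LSK, and 235 in Fbw7-deficient MP against 273 in wild-type MP. The array annotation names 8 of the 10 plasma cell markers listed, 4 of these reached the filter, and the 8 intensities summed to 2277 in Fbw7-deficient LSK, 2345 in wild-type LSK, 1948 in Fbw7-deficient MP and 2424 in wild-type MP. In a longer plasma cell identity list, 12 of 19 genes passed the filter and none passed 2-fold in either population, with medians of 0.03 in LSK and -0.18 in MP. Cxcr4, a homing receptor, was the highest in LSK at log2 0.89, and the elongation factor gene Ell2 was the highest in MP at 0.67. The ER protein genes Txndc5 (0.28 in LSK and -0.34 in MP) and Edem1 (0.16 and -0.48) had opposite directions below 2-fold. The part of plasma cells or B cells in the differences of Igha and Jchain was not tested.

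Among 12 measured B cell transcription regulators, Ebf1 alone was called higher in LSK, and Irf8, Bach2 and Mef2c were called lower in MP. Over all genes, 1.79% were called higher in LSK and 1.49% lower in MP. Ebf1, which sets the B cell fate, read 220 in Fbw7-deficient LSK against 94.8 in wild-type LSK (log2 1.22), and 65.3 in Fbw7-deficient MP against 112 in wild-type MP (log2 -0.77). Only its Fbw7-deficient LSK value exceeded the filter, so the sizes of its differences are not established. Irf8, of myeloid, dendritic and B cells, read 8366 in Fbw7-deficient LSK against 4955 in wild-type LSK (log2 0.76), and 3318 in Fbw7-deficient MP against 9804 in wild-type MP (log2 -1.56). Spib had log2 differences of 0.79 in LSK and -0.56 in MP. Bach2, a repressor of plasma cell differentiation, was lower in both populations, at log2 -0.41 in LSK and -1.87 in MP. Its Fbw7-deficient MP value of 107 lay under the level filter, so the size of its MP difference is not established. Pax5, the B cell identity factor, had log2 differences of -0.05 and 0.02.

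The wider secretory machinery differed little. None of the 26 measured ER chaperones and folding enzymes passed 2-fold in LSK or in MP, with medians of 0.16 and -0.03. In LSK 18 of the 26 lay above 0, led by the oxidase gene Ero1a at log2 0.90 and the disulfide isomerase gene Pdia5 at 0.85, whereas Dnajb9, an XBP1-responsive cochaperone, was at -0.88. The largest contrast between the populations in this list was that of Pdia3, at 0.48 in LSK and -0.34 in MP. Genes of the translocon, signal peptidase and N-glycosylation (29 measured) had medians of 0.19 in LSK and -0.06 in MP, with 22 above 0 in LSK, 18 below 0 in MP and none past 2-fold. Rpn2, of the oligosaccharyl transferase, was the most divided of them, at 0.56 in LSK and -0.18 in MP, followed by Ssr1, of the translocon-associated complex, at 0.28 and -0.34. The 14 genes of ER-associated degradation had medians of 0.05 and -0.03, with none past 2-fold. In the list of ER stress sensors and the ATF4 arm, 13 genes had medians of -0.11 in both populations, and Asns, the asparagine synthetase gene of the ATF4 arm, was the only one past 2-fold, higher by log2 1.66 in LSK and 1.21 in MP. The ERSE was found in the promoter windows of 7 of the 24 matched chaperone and folding genes and of 2 of the 12 matched degradation genes. It was in those of 1 of the 16 matched plasma cell identity genes. None of the 23 translocon and glycosylation, 12 ER stress sensor and ATF4 arm or 13 B cell regulator genes held it. Of all windows 0.119% hold it. That is a share of windows, whereas the list counts are of genes, some of which have several windows.

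**Figure D4:**
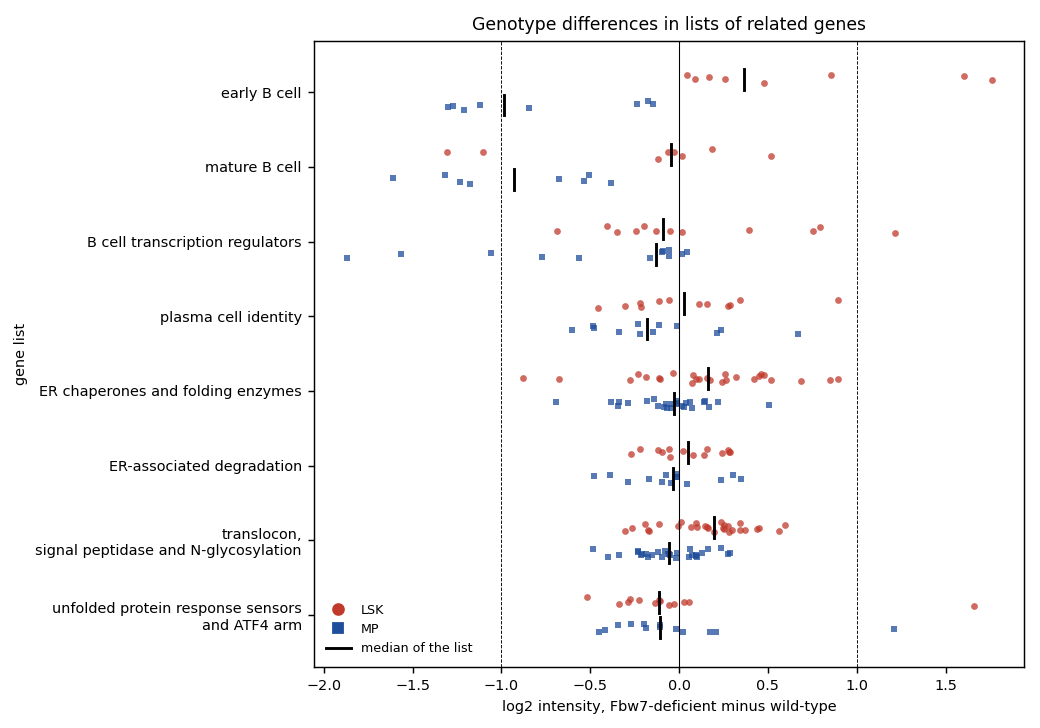
Log2 difference, Fbw7-deficient minus wild-type, for each gene past the level filter in 8 gene lists, in LSK (red circles) and MP (blue squares), with the list median as a black bar and 1 array per group. Dashed lines mark 2-fold. Early B cell genes lie above 0 in LSK and below 0 in MP. The medians of the ER lists lie close to 0 in both, while single genes lie farther out, Asns at 1.66 in LSK and 1.21 in MP.

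RNA of markers of other cell types also differed between the genotypes in these gates. The 10 neutrophil markers were all above 0 in LSK (median 1.11, 6 called higher), with a median of 0.08 in MP. Their intensities summed to 186726 in Fbw7-deficient and 98744 in wild-type LSK, against 187260 in Fbw7-deficient and 179280 in wild-type MP. They include granule genes that were bright in the sorted myeloid progenitors, such as Mpo at 36278 in Fbw7-deficient and 36135 in wild-type MP. The 6 named erythroid markers were called higher in LSK (median 2.87) and lay above 0 in MP (median 1.31). Of all genes, 1.79% were called higher in LSK, beside 6 of the 10 neutrophil and all 6 named erythroid markers. The 7 stem cell markers were all lower in Fbw7-deficient cells of both populations, with medians of -1.41 in LSK and -0.64 in MP. T and NK cell markers had medians of 0.13 and -0.02, and plasmacytoid dendritic cell markers of 0.27 and -0.06, in LSK and MP. Of the 6 stromal markers 4 passed the filter, with medians of 1.57 in LSK and 0.74 in MP. In both populations 3 of them lay above 0, and Pecam1 lay below it, at -0.20 in LSK and -0.97 in MP. The part of such cell types in the antibody gene differences was not tested.

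The genes whose levels over the 4 arrays were most like the mean profile of the 10 members were sought among 1818 genes with a range of at least log2 1. By Euclidean distance between profiles centred on their own mean, the nearest were Pld4 (distance 0.056), Ctsh (0.083), Mpeg1 (0.21), Ccl6 (0.24) and Mgst1 (0.24). Pld4 read 471 in Fbw7-deficient LSK against 223 in wild-type LSK, and 292 in Fbw7-deficient MP against 503 in wild-type MP. Mpeg1, a macrophage perforin-like gene, read 3083 and 1534 in Fbw7-deficient and wild-type LSK, and 1800 and 3571 in Fbw7-deficient and wild-type MP. Ctsh encodes a lysosomal protease and Ccl6 a chemokine of myeloid cells. The nearest to Igha alone were Met (1.59), F13a1 (1.72), Clec7a (1.88), Ly86 (1.92) and Tifab (1.94). The centred profile of Igha spans -2.28 to 1.98 and the mean profile -0.67 to 0.47. Distances were not scaled for this, so those to Igha cannot be compared with those to the mean profile. The mean profile joins members with and without opposite directions, so likeness to it is not likeness to each member. Fkbp11, Xbp1 and Sdf2l1 were highest in Fbw7-deficient MP, where the mean profile stood at -0.25. Over 4 single arrays such likeness describes these samples only.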

How the data were processed

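Expression was measured in 4 samples of sorted mouse marrow cells, 1 array per group, grouped by their titles. Per the labels' protocols, 20 ng of total RNA was amplified in a 2-cycle protocol. The authors deposited 1 linear intensity for each probe set, made with RMA per the submitters' processing notes, which name no version or settings. RMA evens the distributions of arrays (medians 155 to 159), so shifts shared by most genes are not seen, and it compresses differences of dim genes. Of 45101 probe sets, 34945 name 1 gene, 932 several and 9224 none. For 34741 of those naming 1 gene, the current symbol was looked up by gene ID (RefSeq, GRCm38.p6). Each gene was read from its brightest probe set by mean log2 intensity, and 12239 of 18193 genes reached the level filter of 157 on at least 1 array.

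Differences of log2 values were computed in Python 3.11.15 with numpy 2.4.6 and pandas 2.3.3, with a fixed 2-fold call, no test and no error; the number of arrays limits the precision. The procedure was tested on simulated data. The members and lists were chosen with earlier results of these data known. Named were all members, up to 4 genes per list with the largest difference between the LSK and MP genotype differences, marker genes and the 5 nearest genes in likeness. Prdm1, Tnfrsf17, Slamf7, Sdc1, Rag1, Blnk, Dntt, H2-Aa, H2-Ab1, Cd74, Cd79a, Ms4a1, Mpo, Pecam1, Mef2c, Pax5, Dnajb9 and the other immunoglobulin genes were named after their values were seen. Alternatives changed the probe set, the scaling, the floor, the filter and the fold.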

Additional observations from a re-analysis of the deposited data

Results flagged for a closer look

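Genotype differences ran in opposite directions in LSK and MP for 7 of the 10 genes, each from single arrays. This difference between the populations was not tested. For Creld2, 1 of the 7, the MP difference was only log2 -0.11. On the log2 scale the LSK difference minus the MP difference was 6.63 for Igha, 3.56 for Jchain, 1.55 for Ighm, 1.37 for Mzb1, 1.59 for Pou2af1, 1.15 for Irf4 and 0.72 for Creld2. The genes had been chosen for this pattern.

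Probe sets that name several genes stayed out of the comparisons of genes and entered the count of immunoglobulin probe sets alone. Among them, 3 that name several kappa light chain genes each were at least 2-fold higher in Fbw7-deficient than in wild-type LSK, with log2 differences of 2.11, 1.76 and 1.81. The first read 2783 in Fbw7-deficient LSK against 647 in wild-type LSK, and 869 in Fbw7-deficient MP against 2265 in wild-type MP (log2 -1.38). The second read 4462 in Fbw7-deficient LSK against 1320 in wild-type LSK, and 1424 in Fbw7-deficient MP against 2970 in wild-type MP. The third read 4464 in Fbw7-deficient LSK against 1270 in wild-type LSK, and 1465 in Fbw7-deficient MP against 2921 in wild-type MP.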

How the results depend on the processing

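No paired analysis was possible because each group has 1 array and the result comes from no test. The median over the 10 genes of the LSK difference minus the MP difference was 1.26 and came to 0.80 with the mean of all probe sets, under 2-fold; the medians of the other contrasts stayed on their side of 2-fold and kept their direction under every setting run. With a fold threshold of 1.5, members called higher in LSK numbered 7 in place of 3, members lower in MP 5 in place of 3 and members higher in MP 1 in place of 0. Of the 102 other list genes, that threshold called 9 higher in LSK in place of 2, 3 lower in LSK in place of 0, 2 higher in MP in place of 1 and 6 lower in MP in place of 3. With the level filter at the upper quartile, 1 list gene was called higher in LSK. Fkbp11 lost its call in LSK with the mean of its probe sets (log2 0.61) and without _x_at and _s_at probe sets (0.26), and its call between wild-type LSK and MP under both as well. With the mean of its probe sets Ighm lost its call in MP (-0.23) and that between Fbw7-deficient LSK and MP (0.64), and the LSK difference minus the MP difference went below log2 1 for Ighm (0.80) and Irf4 (0.81). Calls were also gained. With quantile normalization Creld2 gained one between wild-type LSK and MP (-1.02), and Sdf2l1 between Fbw7-deficient LSK and MP (-1.05). With arrays centred on the median Sdf2l1 gained that call too (-1.01). No called member reversed under any of the alternatives run. Low intensities near the filter, as for Irf4, limit those differences.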
